A study of Mus musculus with 2 samples.

Results

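DNase-seq peaks that lay in the untranslated regions (UTRs) of protein-coding genes and away from their promoters were examined in mouse hippocampus. A peak was taken when its middle base lay in an annotated UTR and in no coding sequence, and when the peak touched no window of 1000 bp on either side of a transcription start site (TSS) of a protein-coding gene. Of 172689 peaks in 2 libraries, 2840 met this rule. Replicate 1 held 1650 of them among 93545 peaks (1.76%) and replicate 2 held 1190 among 79144 (1.504%), a mean of 1420 ± 325 per library (SD, n = 2). The 3′ UTR held 1593 in replicate 1 and 1130 in replicate 2, and the 5′ UTR held 53 and 57. A further 4 and 3 peaks lay in sequence that is 3′ UTR of one transcript and 5′ UTR of another.

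DNase I cuts open chromatin, so that a peak of cuts marks an accessible stretch of DNA and a short protected run inside it, a footprint, marks bases shielded by a bound protein. Both libraries come from B6CASTF1/J mice, the first-generation hybrid of C57BL/6J and CAST/EiJ, labelled male and 25 days old, and the tissue is given as a layer of hippocampus that is not named. They form 1 group with no treatment. The tissue samples have their own entries under a shared donor entry, and the labels do not give the number of animals. Sex-linked promoters go against the label of replicate 2. At the promoters of Ddx3y, Uty, Kdm5d and Eif2s3y, which lie on the Y chromosome, replicate 2 had 0 peaks and replicate 1 had 2, 1, 1 and 1. At the promoter of Xist, the RNA that silences an X chromosome in females, replicate 2 had 3 peaks and replicate 1 had 0. By these peaks the libraries did not come from a single animal. Replicate 2 is therefore called the library labelled male replicate 2 wherever a direction between the libraries is given, and most results stand per library. Of the UTR peaks, 11 in replicate 1 and 15 in replicate 2 lay on the X chromosome and 0 on the Y chromosome. Genes that mark hippocampal and other neurons had open promoters in both libraries in 14 of 14 pan-neuronal, 12 of 13 excitatory neuron, 9 of 12 dentate granule, 5 of 8 CA1, 9 of 11 CA2 and CA3 and 8 of 15 inhibitory neuron genes. Among markers of other cells it was 9 of 13 for astrocytes, 6 of 13 for oligodendrocytes, 5 of 9 for their precursors, 4 of 11 for endothelial, 2 of 9 for mural, 3 of 7 for meningeal and 2 of 13 for microglia genes, and 4 of 8 erythroid, 1 of 8 lymphocyte and 1 of 9 liver genes. Over all 21924 protein-coding genes the share was 62.6%.

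The UTRs are the parts of an mRNA before and after the coding sequence. In the RNA, the 3′ UTR carries sites for microRNAs and RNA-binding proteins that set stability, translation and, in neurons, transport into dendrites, and it ends at the poly(A) site. In the DNA, the same bases can also be bound by transcription factors and by CTCF, the zinc-finger protein that anchors chromatin loops and insulates domains, and downstream TSSs and enhancers can lie in them. A DNase-seq peak reports on the DNA alone.

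Many of the strongest 3′ UTR peaks held a match to the CTCF consensus, and examples are shown from the strongest loci in which the match overlapped a footprint of both libraries. Each run has 30 bases of mm10 and is written on the strand on which the consensus reads, with the 12 matched bases in capitals.
Dand5, chr8:84815722-84815751, minus strand: cgcttttagCCACTAGGTGGCaccgcgtcc
Cavin1, chr11:100957420-100957449, minus strand: attagggttCCAGCAGGGGGCagcagcgag
Tnfrsf1b, chr4:145214570-145214599, plus strand: caggacgggCCACCAGGGGGCagacgtgtt
Slc4a3, chr1:75559667-75559696, minus strand: caaaaaccaCCACCAGAGGGCtacacacgg
Ky, chr9:102545186-102545215, minus strand: gcacgtgatCCACCAGGGGGCgctcgtgcc
Ror2, upstream match, chr13:53109641-53109670, plus strand: ctttggactCCAGCAGATGGCagcatcgag
Ror2, downstream match, chr13:53109743-53109772, plus strand: catcctccgCCAGCAGGGGGCtcacggagc
The matches of Dand5 and Cavin1 read on the strand of their gene, and the other 5 read against it. The peak at Ror2, the receptor tyrosine kinase for Wnt5a, was the only locus among these with 2 matches. They are named upstream and downstream along the plus strand. Ror2 lies on the minus strand, so their order in the gene is the reverse.

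Other footprints held different sequence, and 5 are shown because they lie in the strongest 3′ UTR peak, in strong 5′ UTR peaks or in a gene of myelin. Here the capitals are the bases inside the footprint of both libraries, and each run of 30 bases is written on the strand of the gene.
Lars2, 3′ UTR, chr9:123462020-123462049, plus strand: tgtcggctCTTCCTATCATTGtgaagcaga
S1pr3, 5′ UTR, chr13:51418785-51418814, plus strand: atggcAACCACGCATGCGCAGGGCcaccag
Ndn, 5′ UTR, chr7:62348243-62348272, plus strand: gcttcccAACACGCATGCGCAAtatcgcat
Rap2b, 5′ UTR, chr3:61364415-61364444, plus strand: caagatTCGCGCCGCCCCGCCCTgccccgc
Mobp, 3′ UTR, chr9:120174930-120174959, plus strand: tcagccCAGATGGGCGGGGGCGGagggtgg
The footprints of S1pr3 and Ndn have 12 bases in common, CACGCATGCGCA. In the 150 bp around the middle of each peak, this run occurred in 1 of 53 5′ UTR peaks of replicate 1 and 2 of 57 of replicate 2, in 0 of the 3′ UTR peaks of either library, and in 0.0320% and 0.0531% of all peaks, in replicate 1 and in replicate 2. The pair was chosen after these sequences were seen. Whether the Lars2 peak and its footprint come from artefact signal, or from copies missing from the reference, was not checked.

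The 3′ UTR was more densely covered by peaks than introns and intergenic DNA and less densely than coding exons. Counted per Mb of genome in each class outside promoter windows, 3′ UTR had 50.4 peaks in replicate 1 and 35.8 in replicate 2, over 31.6 Mb. Coding exons had 103 and 68.2 peaks per Mb, introns 29.9 and 23.1, and intergenic DNA 20.8 and 17.8. Promoter windows had 299 and 276. The 5′ UTR outside promoter windows makes up only 0.678 Mb, in which replicate 1 had 78.2 peaks per Mb and replicate 2 had 84.1.

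In size, 3′ UTR peaks were like the other peaks away from promoters. Their median width was 200 bp in replicate 1 and 180 bp in replicate 2, against 186 and 180 bp for intron peaks and 340 and 280 bp for promoter peaks. The peak value, which is the height of the authors' signal at the peak, had a median of 0.608 in replicate 1 and 0.632 in replicate 2 in the 3′ UTR. Medians were 0.601 and 0.593 in coding exons, 0.565 and 0.561 in introns, 0.530 and 0.529 in intergenic DNA, and 1.21 and 1.07 at promoters. The 5′ UTR peaks had medians of 0.749 and 0.767. Over all UTR peaks the median was 0.621 ± 0.0192 (SD, n = 2 libraries). A footprint of the same library overlapped 67.0% of 3′ UTR peaks in replicate 1 and 69.6% in replicate 2, against 65.5% and 68.9% of intron peaks and 79.6% and 77.5% of promoter peaks.

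The peaks were GC-rich for the sequence they lie in. The median GC content of 3′ UTR peaks was 54.5% and 54.0%, whereas all 3′ UTR bases outside promoter windows together have 42.6%. Their median ratio of observed to expected CpG was 0.273 and 0.272, close to 0.240 and 0.243 of intron peaks and below 0.693 and 0.722 of promoter peaks. The 5′ UTR peaks were between these, at 0.533 and 0.539. Repeats were rare: 1.51% and 2.12% of 3′ UTR peaks had at least 50% of their bases masked as repeats, against 4.28% and 4.27% of intron peaks, while 19.4% of 3′ UTR bases and 29.3% of intron bases are masked.

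UTR peaks of the 3′ side were found in both libraries less often than peaks in general. A peak was counted as shared when it overlapped a peak of the other library by at least 1 bp. Over all peaks, 59.8% of replicate 1 and 71.7% of replicate 2 were shared. In the 3′ UTR the shares were 44.1% (95% exact binomial interval 41.6 to 46.5) in replicate 1 and 63.1% (60.2 to 65.9) in replicate 2. Intron peaks were shared in 47.0% (46.4 to 47.6) and 61.95% (61.3 to 62.6), coding exon peaks in 45.5% (43.6 to 47.4) and 69.5% (67.3 to 71.7), and promoter peaks in 78.0% and 85.0%. Peaks in the 5′ UTR were shared in 75.5% (61.7 to 86.2) and 78.9% (66.1 to 88.6). The intervals cover counting error only, and the distance between the libraries in 3′ UTR peaks was wider than the intervals of either.

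**Figure D1:**
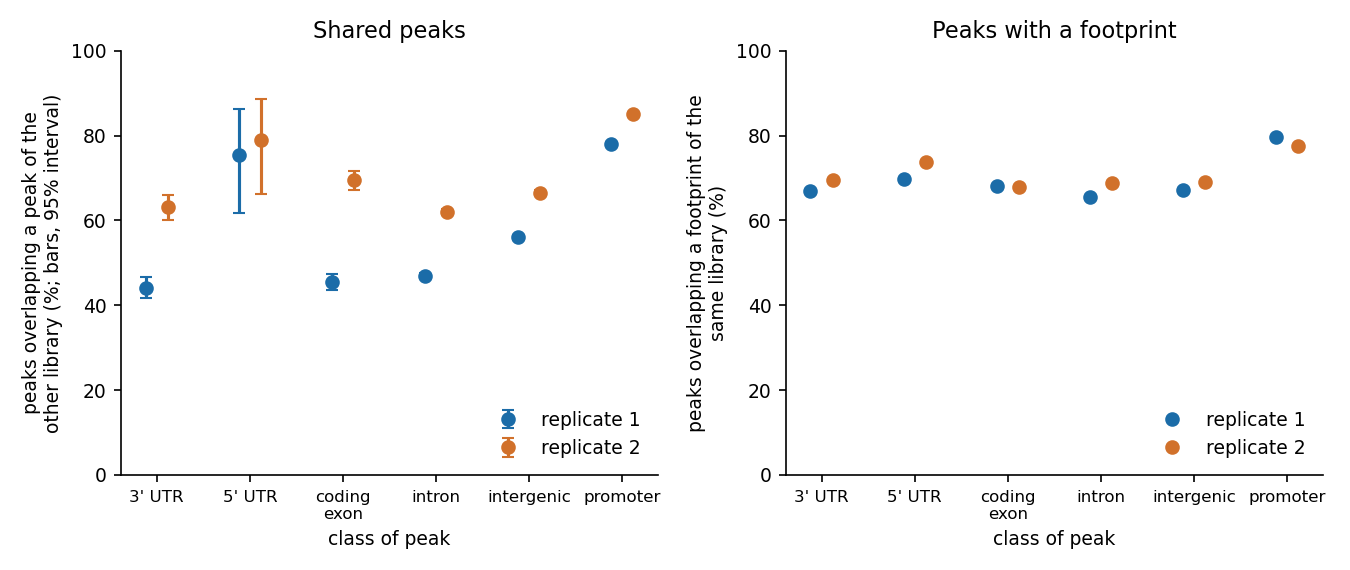
Share of peaks in each class that overlap a peak of the other library (left, bars are exact 95% intervals) and share that overlap a footprint of their own library (right), for replicate 1 in blue and replicate 2 in orange. The 3′ UTR peaks sit at 44.1% and 63.1% shared, near coding exon and intron peaks and below 5′ UTR and promoter peaks, while footprint shares of classes away from promoters lie within a few percentage points of each other.

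Sharing followed the peak value. Among the weakest 20% of 3′ UTR peaks, 8.89% in replicate 1 and 23.8% in replicate 2 were shared, and among the strongest 20% 88.8% and 97.4%. Intron peaks of the same values as those strongest 20% were shared in 92.9% and 96.9%. Of the 3′ UTR peaks without a partner, 7.74% in replicate 1 and 19.2% in replicate 2 still held a base that the other library listed with an FDR under 0.05. Of the shared UTR peaks of replicate 1, 92.2% met another UTR peak, 5.36% a coding exon peak, and 1.21% each a promoter or an intron peak of the other library.

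Peaks of both libraries that overlap were joined into loci. There were 2067 UTR loci, of which 648 held UTR peaks of both libraries, 620 of them in the 3′ UTR, 26 in the 5′ UTR and 2 in sequence of both sides. Another 928 were seen in replicate 1 only and 491 only in the library labelled male replicate 2, and at 119 of these the other library had a peak of another class. At the 648 loci the value of replicate 1 and that of replicate 2, each the highest peak of the locus, were correlated with a rho of 0.882 (Spearman) and, after a log2 transform, an r of 0.911 (Pearson). These are across loci, which are not replicates. The values lay within 2-fold of each other at 98.3% of loci. Of the 11 loci that differed more, replicate 1 was higher at 4 and the library labelled male replicate 2 at 7. The widest difference in favour of replicate 1 was at Per1, a gene of the circadian clock (0.431 in replicate 1 and 0.174 in replicate 2). The widest in favour of the library labelled male replicate 2 was at Sytl4, a synaptotagmin-like gene on the X chromosome (0.163 and 0.509). These were named after their values were seen.

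**Figure D2:**
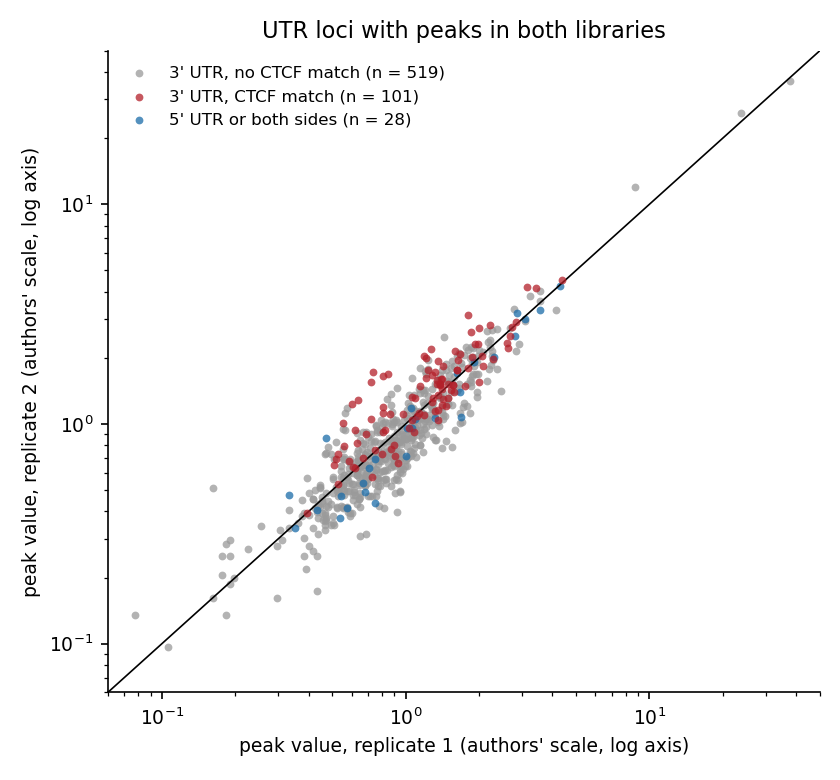
Peak values of the 648 UTR loci with peaks in both libraries, replicate 1 across and replicate 2 up, both on log axes of the authors' scale, with the line of equal values. Points follow the line, 3 loci stand far above the rest at values over 8, and 3′ UTR loci with a CTCF match (red, n = 101) lie more often above the line than those without (grey, n = 519).

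Among the strongest shared 3′ UTR loci, 3 stood apart. The locus of Lars2, which charges leucine tRNA in mitochondria (ENSMUSG00000035202.8, chromosome 9 from 123461881 to 123462140), had a value of 37.7 in replicate 1 and 36.5 in replicate 2. The locus of Cers5, a ceramide synthase (chromosome 15 from 99735661 to 99736080), had 23.8 and 25.9, and that of Ubqln1, a shuttle of ubiquitinated proteins to the proteasome (chromosome 13 from 58177621 to 58177840), had 8.69 and 12.02. These 3 were the only UTR loci with a value over 5 in both libraries. Each had footprints in both libraries, none had a CTCF match, and a search of the reference for near-identical copies (90% identity, 80% of the length) found 0 for each. Whether they lie in regions known for artefact signal was not checked here, and copies missing from the reference were not counted. They stood almost alone. Within 10 kb on either side of the Lars2 locus there was 1 other peak in replicate 1 and 0 in replicate 2, and there were 0 in either library around Ubqln1 and Cers5.

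The next 9 lay between mean values of 3.02 and 4.46, and their values in the libraries were close to each other. Dand5, which encodes a secreted antagonist of Nodal and BMP signals (chromosome 8 from 84815641 to 84815840), had 4.37 in replicate 1 and 4.54 in replicate 2. Rtn2, a reticulon that shapes the endoplasmic reticulum (chromosome 7 from 19295921 to 19296120), had 3.57 and 4.03. Cavin1, a coat protein of caveolae (chromosome 11 from 100957341 to 100957540), had 3.43 and 4.16. Dand5 was above the other 8 in both libraries, whereas Rtn2 and Cavin1 changed places between them. Slc16a5, a member of the monocarboxylate transporter family, had 4.12 and 3.29, and Tnfrsf1b, a receptor for tumour necrosis factor, had 3.15 and 4.21. Srebf1, which encodes the lipid regulator SREBP1, had 3.57 and 3.64 at a locus within 1000 bp of a TSS of the microRNA gene Mir6921. Gna15, a G protein alpha subunit, had 3.25 and 3.81, Prss22, a serine protease, had 2.78 and 3.33, and Mid1, an X-linked ubiquitin ligase, had 3.09 and 2.95. The Mid1 locus differed from the others in that its sequence had 1 further copy in the reference and in that 23 and 26 other peaks lay within 10 kb of it.

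The 5′ UTR loci were few and lay close behind the promoter window. The median distance to the nearest TSS was 1632 bp in replicate 1 and 1633 bp in replicate 2, 34 of 53 and 38 of 57 peaks lay under 2 kb from it, and 33 and 31 lay within 250 bp of the coding sequence. The strongest was at S1pr3, a receptor for sphingosine 1-phosphate (chromosome 13 from 51418641 to 51418900), with values of 4.29 and 4.25. It lay 10002 bp from the nearest TSS of a protein-coding gene and had 13 bp of UTR between its middle and the coding sequence. It also lay within 1000 bp of a TSS of the long noncoding RNA gene Gm32834. It held 7 footprints in either library, 1 of them the footprint printed for S1pr3. A930004D18Rik followed with 3.55 and 3.29, Nup160, a scaffold protein of the nuclear pore, with 2.88 and 3.22, and Rap2b, a small GTPase, with 3.07 and 3.01. Sf3b5, a component of the splicing factor SF3b, had 2.81 and 2.53, and Zfp503, a zinc-finger transcriptional regulator, had 2.31 and 2.02.

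**Figure D3:**
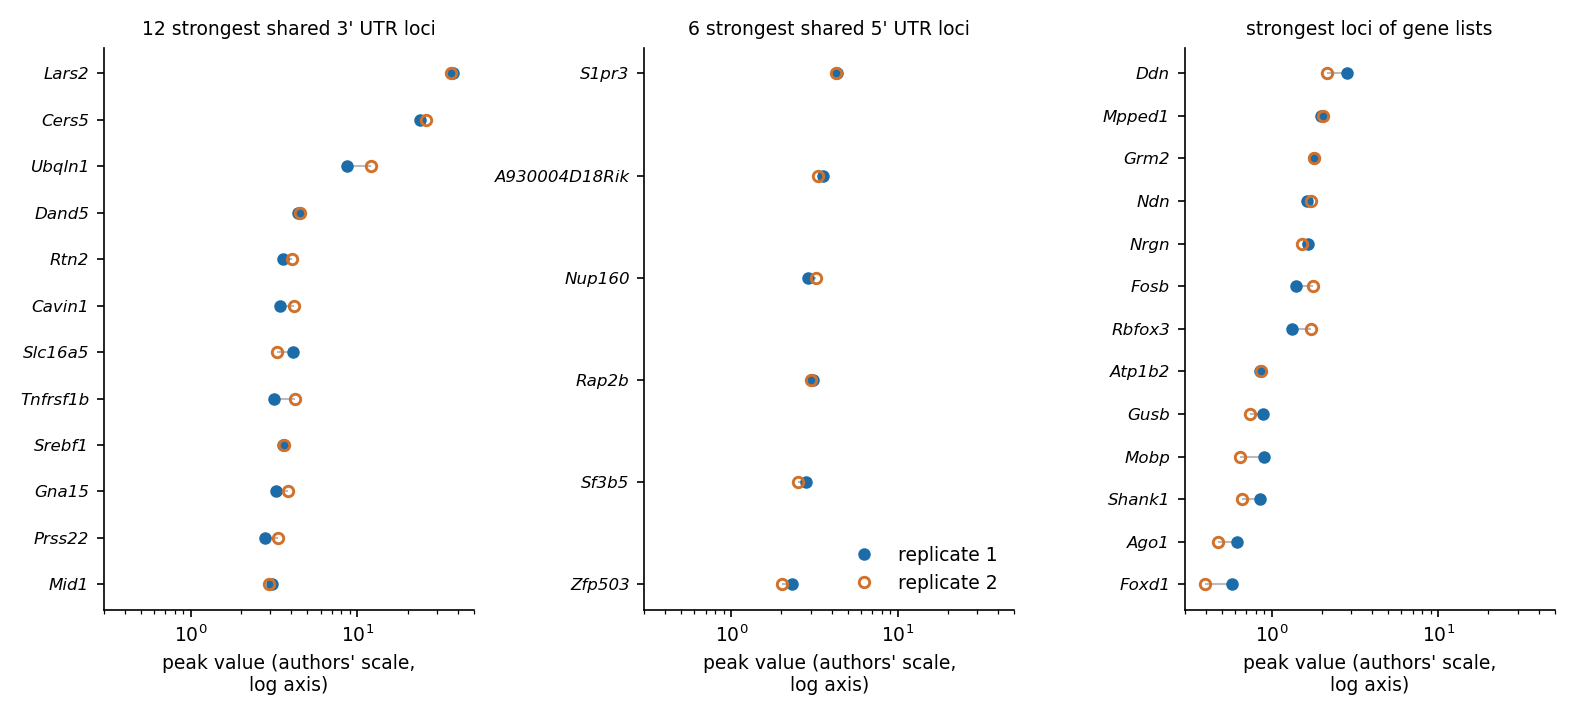
Peak values in replicate 1 (filled) and replicate 2 (open) of the 12 strongest shared 3′ UTR loci, the 6 strongest shared 5′ UTR loci and the strongest shared UTR loci of 14 gene lists, on log axes of the authors' scale. Lars2, Cers5 and Ubqln1 stand apart, and the replicates of a locus lie close together compared with the range over loci.

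The 6 shared loci with the most footprints in a single peak of both libraries were those of S1pr3, Rap2b and Zfp503, the 5′ UTR locus of Pcdh17, a protocadherin of synapse and axon adhesion, and the 3′ UTR loci of Smad7, an inhibitor of TGF-beta signals, and Sox11, a transcription factor of developing neurons. The locus of Sox11 was covered by 11 footprints over 2 peaks in either library, with values of 1.97 in replicate 1 and 1.39 in replicate 2, and that of Smad7 by 10 and 12, with values of 1.32 and 0.844. The locus of Rap2b was covered by 26 footprints over 2 peaks in replicate 1 and 9 over 1 peak in replicate 2, and that of Pcdh17 by 16 over 2 peaks and 33 over 4 peaks. Their values were 3.07 and 3.01 at Rap2b and 1.68 and 1.08 at Pcdh17. Footprint counts were not set against width. The locus of Pcdh17, for example, was wide (chromosome 14 from 84444701 to 84446440), whereas that of S1pr3 was narrower (chromosome 13 from 51418641 to 51418900).

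Matches to the CTCF consensus were frequent in 3′ UTR peaks compared with the 3′ UTR as a whole. Within the 150 bp around the middle of the peak, 5.34% of 3′ UTR peaks in replicate 1 and 10% in replicate 2 held a match on either strand, a mean of 7.67% ± 3.30 (SD, n = 2). The mean over other peaks away from promoters was 5.89% ± 2.10, over all peaks 4.38% ± 1.43 and over promoter peaks 1.26% ± 0.293. In each library the share was higher in 3′ UTR peaks than in other distal peaks, which had 4.41% in replicate 1 and 7.38% in replicate 2, and the difference was not tested. Of 187340 windows of 150 bp laid end to end over the 3′ UTR, 264 held a match (0.141%). Both the consensus and the peaks are GC-rich compared with the 3′ UTR, and the part of base composition in this contrast was not tested.

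The share of CTCF matches followed the peak value. In the weakest 20% of 3′ UTR peaks it was 0% in replicate 1 and 0.897% in replicate 2, and in the strongest 20% 17.1% and 30.8%. Intron peaks of the same values had 14.01% and 26.3%, intergenic peaks 14.2% and 23.1%, coding exon peaks 5.38% and 10.4% and promoter peaks 1.31% and 1.89%. No test was made of these differences.

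**Figure D4:**
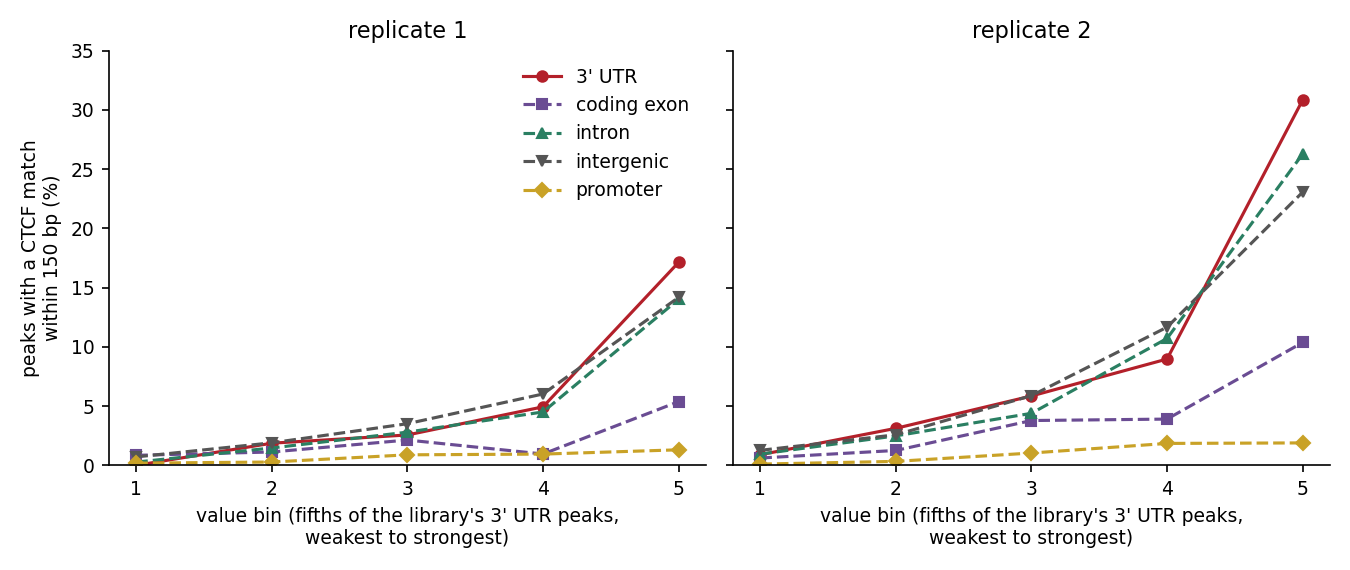
Share of peaks with a CTCF match within the 150 bp around their middle, by bins of the peak value that each hold 20% of the library's 3′ UTR peaks (weakest at the left), for replicate 1 (left) and replicate 2 (right). The red line of 3′ UTR peaks climbs to 17.1% and 30.8% in the strongest bin, beside intron and intergenic peaks and above coding exon and promoter peaks.

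Counted over whole peaks, 101 of the 620 shared 3′ UTR loci (16.3%) had a CTCF match, 102 sites in all. A footprint overlapped 93 sites in replicate 1 (91.2%) and 97 in replicate 2 (95.1%), and 91 sites in both. The sites lay at a median of 13 bp from the middle of the strongest peak of their locus, and 83 of them within 50 bp. On the strand of the gene read 41 of 102 (40.2%). Of the 25 strongest shared 3′ UTR loci 10 held a match, of the 50 strongest 17, of the 100 strongest 33, and of the 100 weakest 2. The median of the mean value was 1.36 at loci with a match and 0.800 at loci without.

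The loci with a match differed between the libraries in the opposite direction to the others. The median log2 difference, replicate 1 minus the library labelled male replicate 2, was -0.14 at the 101 loci with a match, of which 68 were higher in replicate 2, and 0.13 at the 519 without, of which 178 were higher in replicate 2. The same held outside the UTRs. Among shared peaks of replicate 1, those with a match within 150 bp had medians of -0.13 in the 3′ UTR, -0.10 in coding exons, -0.17 in introns and -0.19 in intergenic DNA, and those without a match had 0.12, 0.21, 0.16 and 0.11. Of the 7 UTR loci more than 2-fold higher in the library labelled male replicate 2, 5 had a CTCF match, at Riok2, a kinase of ribosome assembly (0.806 in replicate 1 and 1.66 in replicate 2), Sgpp2, a sphingosine 1-phosphate phosphatase (0.735 and 1.72), Rab7b, a small GTPase of endosomes (0.721 and 1.56), Sh3d19 (0.636 and 1.28) and the olfactory receptor gene Olfr1410 (0.601 and 1.23). These were named after their values were seen, and no test was made.

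Individual sites show the spread. Slc4a3, an anion exchanger of brain and heart, had values of 2.83 in replicate 1 and 2.91 in replicate 2, and Slc43a2, an amino acid transporter, had 2.73 and 2.76. Ky had 2.69 and 2.51, and Ror2 had 2.23 and 2.82. Skap2, an adaptor of Src family kinases, had 1.80 and 3.15, the widest gap among the 8 strongest loci with a match in footprints of both libraries.

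Of the other consensus sequences, the AP-1, NeuroD and RFX sites were rarer in 3′ UTR peaks than in other peaks away from promoters in both libraries, and the SP/KLF box was more frequent in both. These differences were not tested. The AP-1 site TGANTCA, bound by FOS and JUN, occurred in 4.27% of 3′ UTR peaks of replicate 1 and 4.07% of replicate 2, against 5.06% and 5.22% of other distal peaks. The E-box CAGATGG, bound by NeuroD factors of excitatory neurons, occurred in 7.03% and 7.52%, against 7.81% and 8.91%. The RFX site GTTGCCAT was in 0.502% and 0.442%, against 0.883% and 1.16%, but the first of these shares rest on 8 and 5 peaks. Coding exon peaks taken alone had lower shares than 3′ UTR peaks for AP-1 (2.42% in replicate 1 and 2.69% in replicate 2). The same held for the E-box (6.54% and 7.49%), by little in replicate 2. For RFX they had 0.454% and 1.37%, lower in replicate 1 and higher in replicate 2. The SP/KLF box GGGCGGG of CpG-rich promoters occurred in 3.95% and 4.16% of 3′ UTR peaks and 7.55% and 12.3% of 5′ UTR peaks, against 2.94% and 3.43% of other distal peaks and 18.2% and 21.7% of promoter peaks. The ETS site CCGGAAG, the YY1 site AAGATGGC and the cyclic AMP response element TGACGTCA were more frequent than in other distal peaks in 1 library and rarer in the other. They were in 1.19% and 1.15%, 0.816% and 1.59%, and 0.377% and 0.0885% of 3′ UTR peaks, the last from 6 and 1 peaks. The EGR site GCGTGGGCG and the longer NFI, MEF2, REST and NRF1 sequences were each found in at most 0.227% of 3′ UTR peaks on average. Both strands were searched, and a match is not a site of binding. The Mobp footprint holds the E-box and the SP/KLF box in overlapping letters, and that of Rap2b holds the SP/KLF box on the other strand.

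Along the 3′ UTR, peaks were densest next to the coding sequence. In the first 250 bp after it there were 71.7 peaks per Mb in replicate 1 and 46.5 in replicate 2, between 1000 and 2000 bp 51.3 and 33.7, and beyond 4000 bp 23.8 and 22.4. With each 3′ UTR split into 5 stretches of equal length, the first held 60.2 and 41.3 peaks per Mb and the last 36.1 and 28.4, and the stretches between lay from 48.5 to 54.7 in replicate 1 and from 36.2 to 36.5 in replicate 2. The median 3′ UTR with a peak was 2321 bp long in replicate 1 and 2402 bp in replicate 2, and the peak lay a median of 933 and 945.5 bp after the coding sequence and 1009 and 1011 bp before the end. Of the 3′ UTR peaks, 49.5% and 49.4% lay within 1000 bp of the transcript end.

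Few peaks lay over the poly(A) signal. The hexamer AATAAA was found on the gene strand within the 150 bp around the middle of 57 3′ UTR peaks in replicate 1 (3.58%) and 52 in replicate 2 (4.60%), against 12.5% of all windows of that length in the 3′ UTR and 65.0% of the last windows before the transcript end. The hexamer is AT-rich and the peaks are GC-rich, and the part of base composition in this was not tested.

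**Figure D5:**
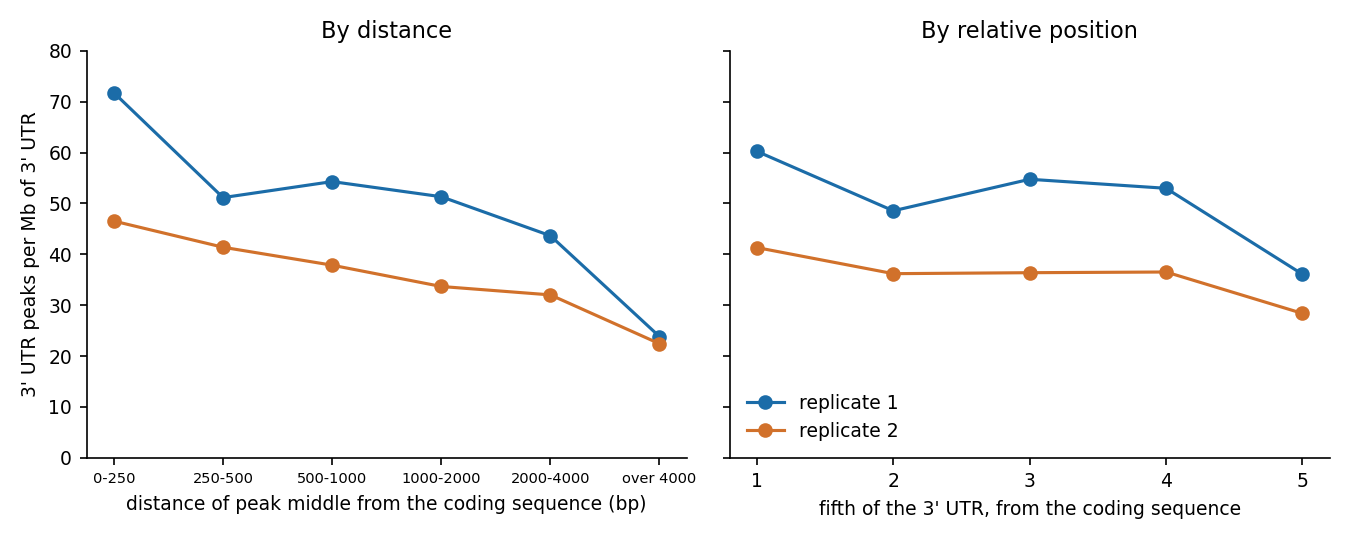
Number of 3′ UTR peaks per Mb of 3′ UTR outside promoter windows, by distance of the peak middle from the coding sequence (left) and by stretches of 20% of the 3′ UTR from the coding sequence to the transcript end (right), for replicate 1 in blue and replicate 2 in orange. Both libraries are highest in the first bin (71.7 and 46.5 by distance) and lowest in the last (23.8 and 22.4).

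The distance to promoters was moderate. The nearest TSS of a protein-coding gene was a median of 5748 bp from a 3′ UTR peak in replicate 1 and 6189 bp in replicate 2, and 44.3% and 41.3% lay under 5 kb from it. That TSS belonged to the same gene for 68.3% and 69.1% of peaks. A TSS of a gene of another type, such as an antisense RNA, lay within 1000 bp of 4.96% and 5.04% of 3′ UTR peaks, against 3.34% and 3.47% of intron peaks and 8.57% and 8.74% of intergenic peaks. Of the 648 shared loci 36 touched such a window (5.56%), and 17 of these windows belonged to antisense genes, 7 to processed transcripts, 4 to long intergenic noncoding RNAs and 3 each to microRNAs and processed pseudogenes. Besides S1pr3 and Srebf1, examples were Kcnab3, a potassium channel beta subunit, near the antisense gene Kcnab3os (1.87 in replicate 1 and 1.90 in replicate 2), and Nynrin near Gm26751 (1.51 and 1.68).

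Of 21924 protein-coding genes, 615 had a UTR locus with peaks of both libraries (2.81%), and 1198 had a UTR peak in replicate 1 and 959 in replicate 2. The share of genes with a shared locus was 6.89% where the longest 3′ UTR reached 4000 bp or more, 5.01% from 2000 to 4000 bp, 3.59% from 1000 to 2000 bp, 1.61% from 500 to 1000 bp and 0.516% below 500 bp. Genes with a shared locus more often had an open promoter in both libraries, 79.5% of 614 genes against 62.5% of the other 21128 with an annotated 3′ UTR. The gap was 90% against 80.4% in the longest group, 85.2% against 78.3%, 72.0% against 71.6% and 73.8% against 62.7% in the groups between, and 58.8% against 41.4% in the shortest. Fewer cells with an open site and a weaker opening in every cell cannot be told apart in bulk tissue.

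Genes induced by neuronal activity were among those with shared loci. Of 18 listed genes 5 had one, Egr3, Egr4, Fosb, Jun and Per1, or 27.8% against 2.81% of all protein-coding genes. The list was written with earlier results of these data known, has a median 3′ UTR of 1227.5 bp against 1040 bp over all genes, and had open promoters in 18 of 18. Fosb, a partner of JUN in AP-1 (chromosome 7 from 19303861 to 19304080), had 1.41 in replicate 1 and 1.77 in replicate 2, and lies on the chromosome next to the locus of Rtn2. Jun had 1.24 and 1.10, the zinc-finger factor Egr3 had 1.10 and 0.967, and its relative Egr4 had 0.671 and 0.819. Per1 was the weakest.

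Genes of excitatory neurons and of the synapse gave single examples. Over all protein-coding genes 2.81% had a shared locus, and the median 3′ UTR was 1040 bp. List medians were 1665 bp for excitatory neuron, 2295.5 bp for CA1, 2762 bp for dendritic mRNA and 2899 bp for synaptic scaffold genes. Of all genes with a 3′ UTR from 2000 to 4000 bp, 5.01% had a shared locus. The part of length in the counts of these lists was not tested. Of 13 excitatory neuron genes 3 had a shared locus, Nrgn, the calmodulin-binding neurogranin (1.65 in replicate 1 and 1.53 in replicate 2), Nptx1, a secreted pentraxin that gathers AMPA receptors (up to 0.933 and 0.754 at its 2 loci), and Fezf2, a transcription factor of projection neurons (0.629 and 0.587). Of 8 CA1 genes there were 2, Mpped1 (1.99 and 2.04) and Fibcd1 (1.19 and 1.10). Of 25 genes whose mRNA is found in dendrites there were 3, with Ddn, the postsynaptic protein dendrin (chromosome 15 from 98804161 to 98804400), at 2.83 and 2.15, followed by Nrgn and the scaffold Shank1. Shank1 had 3 loci along its 3′ UTR of 3238 bp, with values of 0.742 and 0.587, 0.848 and 0.664, and 0.509 and 0.696. Of 26 synaptic scaffold genes there were 2, Shank1 and Lrrtm2, a leucine-rich adhesion protein of excitatory synapses. The 2 loci of Lrrtm2 differed between the libraries in opposite directions. Values were 0.947 in replicate 1 and 0.490 in replicate 2 at one, and 0.473 and 0.741 at the other.

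Of 21 glutamate receptor genes 2 had a shared locus, the metabotropic receptor Grm2 (1.79 in replicate 1 and 1.80 in replicate 2, with a CTCF match) and the kainate receptor subunit Grik5 (1.66 and 1.46). Of 14 GABA receptor genes 0 had a shared locus. The median 3′ UTR was 2601 bp in the glutamate receptor list and 2512.5 bp in the GABA receptor list. It was 2751 bp in the neuronal RNA-binding list and 3542.5 bp in the microRNA pathway list. Over all genes it was 1040 bp, and 2.81% had a shared locus. The part of length in the counts of these lists was not tested. Of 31 neuronal RNA-binding genes there were 3, Rbfox3, which encodes the neuronal marker NeuN and was also the only 1 of 14 pan-neuronal genes (1.32 and 1.73, with a CTCF match), Celf1 (0.594 and 0.690) and Celf5. Of 16 genes of the microRNA pathway there were 2, Ago1, an Argonaute (0.622 and 0.477), and Trim71, a ubiquitin ligase whose mRNA is a let-7 target, with a 5′ UTR locus (0.537 and 0.374).

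Each list of markers of other cells had 0, 1 or 2 genes with a shared locus, beside 2.81% of all protein-coding genes. Of 13 oligodendrocyte genes 2 had a shared locus, the myelin gene Mobp (0.897 in replicate 1 and 0.645 in replicate 2) and the transcription factor Olig1 (0.629 and 0.432). Of 13 astrocyte genes there was 1, Atp1b2, a sodium pump subunit (0.855 and 0.864), and of 7 meningeal genes 1, Foxd1 (0.579 and 0.400). The lists of dentate granule (12 genes), CA2 and CA3 (11), inhibitory neuron (15), oligodendrocyte precursor (9), microglia (13), endothelial (11), mural (9), erythroid (8), lymphocyte (8), liver (9) and chromatin regulator genes (29) had 0. Gusb was the only 1 of 18 housekeeping genes (0.890 and 0.741), and Ndn, the paternally expressed gene for necdin, the only 1 of 16 imprinted genes, with a 5′ UTR locus (chromosome 7 from 62348181 to 62348580) at 1.63 and 1.71 that held 8 and 6 footprints.

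A few long 3′ UTRs held many peaks. Gab2, an adaptor of growth factor receptors, had 6 in each library, but all were weak, from 0.103 to 0.271, and a median of 21 other peaks lay within 10 kb of them. Ephb2, an ephrin receptor of synapses, had 5 in replicate 1 and 6 in replicate 2 over 7786 bp of 3′ UTR, with values from 0.638 to 2.66, and 4 loci were shared. Iqce had 5 and 5 over 3542 bp, with values from 0.554 to 1.08, and 4 shared loci. Gins2 and Gse1 had 5 and 5, which were the same peaks in overlapping UTRs. B4galt5 had 5 and 4. Other genes had most or all of their peaks in 1 library. Ntrk2, the BDNF receptor, had 1 in replicate 1 and 9 in replicate 2, with 1 shared locus. Gramd1b and Iqsec3 each had 9 in replicate 1 and 0 in replicate 2. Median values were 0.184 at Ntrk2, 0.269 at Gramd1b and 0.247 at Iqsec3.

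Such crowded places held many of the peaks seen in a single library. Of the 3′ UTR peaks without a partner, 37.6% in replicate 1 and 17.5% in replicate 2 had at least 10 other peaks of their own library within 10 kb, against 13.2% and 10.1% of the shared 3′ UTR peaks. In introns the shares were 24.8% and 17.2% of peaks without a partner and 5.27% and 3.88% of shared peaks. The part of these places in the difference between the libraries was not tested beyond the shares with them left out.

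The strongest UTR peaks without a partner were those of Atp5d, a subunit of the mitochondrial ATP synthase (1.70), Rcor2, a corepressor of the REST complex (1.46), and Gm28043, whose 3′ UTR is also that of Cmtr1 (1.41), in replicate 1. In the library labelled male replicate 2 they included Dclk2, a doublecortin-like kinase of neurons (1.17), and Tanc2, a postsynaptic scaffold (1.13). Atp5d and Rcor2 lay among 15 and 18 other peaks within 10 kb. These 5 were above the median of shared loci, which was 0.897 in replicate 1 and 0.832 in replicate 2.

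Near-identical copies elsewhere in the genome were found for 54 of the 2067 loci (2.61%), 16 of them among the 648 shared loci. The search found only 2026 of the 2067 loci at their own place, so copies of the others may have been missed. In it 0 loci matched the mitochondrial chromosome. The boundary at 1000 bp from a TSS cuts through a continuum. The members nearest to it were Acap3 (1002 bp, 0.382), Ntrk3 (1003 bp, 0.311) and Borcs6 (1004 bp, 0.869) in replicate 1, and Pum2 (1002 bp, 0.477), Hoxa10 (1004 bp, 0.290) and Trib2 (1005 bp, 0.993) in replicate 2. Just inside, and so left out, were peaks at Rnf10 (1000 bp, 0.685), Kctd6 (999 bp, 0.481) and Ramp2 and Vps25 (993 bp, 0.940) in replicate 1, and at Kcne1l (1000 bp, 0.329), Ppp2r3d (999 bp, 0.271) and 3110021N24Rik (998 bp, 0.342) in replicate 2.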

How the data were processed

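The data are DNase-seq of 2 libraries, which the labels number as biological replicates 1 and 2 of the same tissue. The lists of narrow peaks, the footprints and the base-wise FDR were used as deposited, each made from its library's own alignments on mm10 per the file headers and notes. The peak value is the authors' deposited signal, a coverage-like height of unstated scale, and the p-value used is the authors' deposited FDR, listed under 0.05 only. Peak values came in whole multiples of 0.00707 (replicate 1) or 0.00645 (replicate 2), to within 0.05 of a multiple, but what a multiple counts is not stated, so the depth of the libraries is unknown. The aligner and the callers of peaks and footprints are, like their versions, not given in the sources used here.

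Peaks were classed with GENCODE M21 in the order promoter, coding exon, UTR, intron, intergenic, by the middle base for all but promoters. Where several UTRs held a peak, the transcript with the longest gave the position. Sequence and repeat masking came from the GRCm38.p6 reference (RefSeq), the same build as mm10. Of the footprints of a peak, those overlapping it by at least 1 bp were counted. Motifs were searched as consensus on both strands, and CTCF as a 12-base core with 2 choices at 5 places. Copies were sought by blastn 2.17.0 at 90% identity over 80% of the length, which found 2026 of the 2067 loci at their own place. All other steps used scipy 1.17.1, pandas 2.3.3, numpy 2.4.6 and matplotlib 3.10.9 under Python 3.11.15. Classification, positions, overlaps and motif search were tested on simulated data. With 1 group there is no comparison of conditions and no p-value, and values are given per library or as mean ± SD.

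Members, motifs and the 27 gene lists were chosen with earlier results of these data known. Named loci are the 12 strongest shared 3′ UTR and 6 strongest shared 5′ UTR loci, the 8 genes with most 3′ UTR peaks (9 with a tie), the 3 strongest partnerless peaks of each library, the 6 loci with most footprints, the 8 strongest with a CTCF match in footprints of both libraries, the 3 peaks on each side of the promoter limit and the strongest locus of each list. Some of these, and 1 list, are not reported here. Others were chosen after their values were seen. Alternatives were a shorter peak list, other promoter windows, transcript sets and overlap rules, and each library left out.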

Additional observations from a re-analysis of the deposited data

How the results depend on the processing

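Peaks of UTRs numbered 1420 per library on average, and 698 in the shorter peak list, in which 293 genes instead of 615 had a shared locus. On that list the median value was 0.839, the footprint share 73.5%, the 3′ UTR share of UTR peaks 94.4% against 95.8%, the share of 3′ UTR peaks within 1 kb of the transcript end 51.2% against 49.5%, the noncoding TSS share 4.29% against 4.89% and the CTCF share of 3′ UTR peaks 11.6% against 7.67%. With promoter windows of 2500 bp these were 98.5% for the 3′ UTR, 46.1% near the end and 4.05% for noncoding TSSs. Near the end lay 49.3% with windows at the TSSs of all genes and 49.2% when at least 50% of the peak had to be UTR. With basic transcripts only, the 3′ UTR share was 94.1% and the noncoding TSS share 5.55%. With a reciprocal overlap of 50% the shared share was 34.4% against 54.6%. Without peaks that had 10 or more others within 10 kb, an alternative chosen after seeing the data, the median value was 0.671 and the footprint share 71.7%. In 56 of 76 alternatives the value moved by less than the spread between the libraries, or by less than 1.5 times for counts, and the others are those given here. Leaving out 1 of 2 libraries always moves a mean by less than their SD. For values other than counts, those alternatives were therefore bound to be among the 56 and say nothing on robustness. The cause of the larger moves was not tested.

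With either library left out, the values ranged from 1190 to 1650 UTR peaks, 94.96% to 96.5% in the 3′ UTR, 45.2% to 63.9% shared, 0.608 to 0.635 for the median value, 67.0% to 69.7% with a footprint, 49.4% to 49.5% near the end, 4.87% to 4.91% at noncoding TSSs, 1.52% to 2.10% in repeats, 5.34% to 10% with CTCF, and 959 to 1198 genes with a UTR peak. No paired analysis was possible because the libraries form a single group. The depth is unknown, so that a peak missing from a library may be an absent or an undetected one, and the spread rests on 2 libraries.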
